A study of Mus musculus with 6 samples.

Results

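In Esrrb-GFP reporter embryonic stem cells (ESCs), 2484 genomic regions were called for OCT4 in the high and medium fractions but not the negative one. These regions were in no NANOG list. They were chosen by these measured calls, as intervals found in the OCT4 lists of the high and medium fractions and absent from the OCT4 negative list and all 3 NANOG lists, and they make up 2484 of the 23767 distinct regions in the 6 lists. They are referred to here as medium-lost regions. Lost or absent means not called. Per the methods, a region was dropped from a fraction that retained too little of its highest signal, so some OCT4 binding may remain there. Likewise, NANOG-free means only that the same interval was in no NANOG list, so some NANOG binding may be present. The cells were E-GFPd1 ESCs (labelled Esrrb-2a-GFPd-IBIH), a clonal E14Tg2a derivative in which a destabilised GFP is translated from both Esrrb alleles through a 2a peptide, grown in LIF and foetal calf serum. Fixed cells were sorted into the brightest cells (high), cells just above the GFP-negative gate (medium) and GFP-negative cells (negative, called low in the source names). OCT4 was precipitated with a goat polyclonal and NANOG with a rabbit antiserum. Material of 3 ChIPs was pooled for each library, and there was 1 library per factor and fraction, so no difference between fractions has a replicate check and no p-value is given.

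OCT4 is a POU-domain transcription factor that binds the octamer sequence alone, or next to SOX2 at a composite Oct-Sox element, and is needed for pluripotency in naive and primed cells alike. NANOG is a homeodomain factor that sustains self-renewal. ESRRB is an orphan nuclear receptor that binds an extended AGGTCA sequence as a monomer, is present in naive ESCs and is lost as cells leave that state, and the KLF factors, which bind CACCC-type boxes, share many of its targets.

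Most medium-lost regions (77.6%) held no exact match, within 100 bp of their centre, to any of the 4 motifs shown here. This was not particular to them, as the share was 72.4% to 84.5% in the other OCT4 patterns without NANOG. Those with a match near known genes give concrete examples. The regions below were picked as the members with an exact match inside the interval that lay closest to the start of a listed gene. Each is given on the plus strand of mm9, 5′ to 3′, with every match in capitals. The motifs were the octamer ATGCAAAT, the Oct-Sox core TTGTNATGC, the ESRRB motif TCAAGGTCA and the KLF box GGGTGTGG or GGGCGTGG, on either strand. The interval in an intron of Jam2, which encodes a junctional adhesion molecule and stands in the naive list, held an octamer at one end and an ESRRB motif towards the other. In an intron of Lef1, the Wnt-responsive partner of beta-catenin, the octamer and the Oct-Sox core overlapped. Etv4, an ETS factor of the FGF pathway, had an octamer upstream of its start, and Sall1, a zinc finger gene, had an Oct-Sox core downstream of the gene. Zfp281, a zinc finger regulator of pluripotency exit, had an ESRRB motif, and Pim3, a kinase gene that responds to LIF, had a KLF box. The Jam2 octamer and the Sall1 core lay over 100 bp from the centre of their intervals, so the shares given here do not count them.
Jam2, chr16:84779492-84779791: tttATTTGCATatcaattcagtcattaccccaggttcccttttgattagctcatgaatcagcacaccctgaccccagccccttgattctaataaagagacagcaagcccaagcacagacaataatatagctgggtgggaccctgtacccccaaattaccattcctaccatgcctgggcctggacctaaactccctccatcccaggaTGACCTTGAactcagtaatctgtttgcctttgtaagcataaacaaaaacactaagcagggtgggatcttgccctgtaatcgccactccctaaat
Lef1, chr3:130820992-130821091: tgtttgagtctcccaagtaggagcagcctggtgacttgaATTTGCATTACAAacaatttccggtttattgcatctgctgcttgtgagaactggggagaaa
Etv4, chr11:101648872-101649051: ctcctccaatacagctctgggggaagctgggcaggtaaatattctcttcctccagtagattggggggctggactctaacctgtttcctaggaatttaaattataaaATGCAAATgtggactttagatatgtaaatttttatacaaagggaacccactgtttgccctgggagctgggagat
Sall1, chr8:91549172-91549451: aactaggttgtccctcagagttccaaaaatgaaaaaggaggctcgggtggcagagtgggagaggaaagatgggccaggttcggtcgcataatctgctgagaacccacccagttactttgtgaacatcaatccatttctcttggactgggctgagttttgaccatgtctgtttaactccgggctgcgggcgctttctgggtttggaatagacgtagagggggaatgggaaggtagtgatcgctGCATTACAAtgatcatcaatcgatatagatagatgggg
Zfp281, chr1:138542932-138543031: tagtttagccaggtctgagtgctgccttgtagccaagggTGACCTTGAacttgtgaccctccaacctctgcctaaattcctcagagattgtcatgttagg
Pim3, chr15:88697992-88698191: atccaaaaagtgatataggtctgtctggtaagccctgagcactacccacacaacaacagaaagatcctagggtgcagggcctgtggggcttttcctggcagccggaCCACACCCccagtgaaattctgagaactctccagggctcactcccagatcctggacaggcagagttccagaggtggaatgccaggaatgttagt

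The following 3 intervals are examples of members without an exact match to these 4 motifs, chosen for display after their values were seen. Pou5f1 encodes OCT4 itself, and Dppa3 encodes Stella, a maternal factor that is expressed in naive cells. The Pou5f1 interval was centred 1361 bp upstream of the gene start, and the Dppa3 intervals 137 bp and 27 bp upstream.
Pou5f1, chr17:35641592-35641651: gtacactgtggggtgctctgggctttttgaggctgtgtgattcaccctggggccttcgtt
Dppa3, chr6:122576272-122576311: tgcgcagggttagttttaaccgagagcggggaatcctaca
Dppa3, chr6:122576372-122576431: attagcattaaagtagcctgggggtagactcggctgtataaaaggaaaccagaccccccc

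OCT4 lists held 12449 regions in the high, 14464 in the medium and 10369 in the negative fraction, and NANOG lists held 9425, 4729 and 286 regions. Of the 9792 OCT4 regions in both the high and the medium list, 4074 or 41.6% were absent from the negative list, which is the contrast the rule used and is given for scale only. Of these, 2484 (61.0%) were in no NANOG list and 1590 were in at least 1. NANOG-free regions of the high and medium lists were lost in 37.4% of cases (2484 of 6650, 95% Wilson interval 36.2 to 38.5). With NANOG in any list, 50.6% were lost (1590 of 3142, 48.9 to 52.4). Both shares rest on the calls that chose the regions and are given as a description. All intervals here cover counting error over regions of these libraries only. Regions are not replicates, the read depth behind each list is not known from the lists, and the part of sequencing depth in these counts was not tested. As the lists hold no signal, no values of regions just inside and just outside the threshold can be given.

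The median width of medium-lost regions was 80 bp (quartiles 60 and 140 bp, range 40 to 700 bp), equal to the median of 80 bp over all regions. It was 100 bp for the 4166 constitutive regions, which are the NANOG-free OCT4 regions of all 3 fractions. The 1590 lost regions with NANOG had a median of 180 bp and the 1058 NANOG-free regions of the high list alone a median of 60 bp. The other NANOG-free patterns (high and negative, medium and negative, medium alone, negative alone) also had medians of 60 bp. The narrowest intervals of 40 bp made up 22.5% of medium-lost and 14.9% of constitutive regions, a difference of 7.64 percentage points (95% Newcombe interval 5.69 to 9.62). In the other NANOG-free patterns their share was higher, from 27.8% (medium and negative) to 37.2% (negative alone). Width was set when the authors merged the peaks of all datasets, so it depends in part on the number of libraries with a peak and cannot be told apart from signal strength here.

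The sequence of medium-lost regions differed from that of constitutive regions in both directions. OCT4's own motifs were less frequent, and the ESRRB motif was more frequent. The octamer was found within 100 bp of the centre in 207 medium-lost regions, 8.33% (7.31 to 9.49), against 12.4% (11.4 to 13.4) of constitutive regions, a difference of -4.05 points (-5.51 to -2.55). The Oct-Sox core was found in 212, 8.53% (7.50 to 9.70), against 12.8% (11.8 to 13.9), a difference of -4.28 points (-5.76 to -2.76). Both shares stood well above those in windows 10 kb downstream of the same medium-lost regions, 1.21% for the octamer and 0.443% for the core. Of all regions in the 6 lists, 7.88% held the octamer and 7.36% the core. Either motif was present in 16.3% of medium-lost and 23.9% of constitutive regions, so medium-lost regions more often lacked an exact OCT4 motif. The differences varied with width. In regions of 40 to 60 bp they were -1.57 points (-3.74 to 0.671) for the octamer and -6.55 (-8.83 to -4.21) for the core. In regions of 160 bp or more they were -6.49 (-9.49 to -3.25) and -0.436 (-3.21 to 2.62).

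The ESRRB motif was found in 45 medium-lost regions, 1.81% (1.36 to 2.42), and in 23 constitutive regions, 0.552% (0.368 to 0.827), a difference of 1.26 points (0.728 to 1.89). The control windows downstream held it in 0.644% and 0.480%, so the share in constitutive regions was close to that of neighbouring sequence. Of all regions, 1.40% held it. In regions of 40 to 60 bp the difference in the ESRRB motif was 0.699 points (-0.0343 to 1.57), and in those of 160 bp or more 1.42 (0.318 to 2.99). The last 7 letters of this motif, AAGGTCA, called the short ESRRB motif below, overlap the ESRRB motif by definition and also fit other nuclear receptors such as NR5A2. The short ESRRB motif was found in 245 medium-lost regions, 9.86% (8.75 to 11.1), against 4.78% (4.17 to 5.47) of constitutive regions, a difference of 5.09 points (3.78 to 6.46), with 4.27% and 3.82% in the control windows and 7.84% of all regions. At least 2 short motifs were present in 1.13% of medium-lost and 0.120% of constitutive regions. Lost regions with NANOG had 1.70%, and NANOG-free regions of the medium list alone had 0.591%. Those of the high list alone had 0.756%, and the interval of the difference from medium-lost regions includes 0 (-0.436 to 0.992). No mask for repeats was applied, and the part of repeats in these matches was not tested.

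Set beside the other OCT4 patterns without NANOG, the medium-lost regions fell in with those that were absent from negative cells. The short ESRRB motif was present in 7.28% (5.86 to 9.0) of regions of the high list alone and 7.54% (6.47 to 8.77) of regions of the medium list alone. In the patterns that included the negative fraction it was present in 4.78%, 2.48% (high and negative), 3.72% (medium and negative) and 2.89% (negative alone). The intervals of the 3 patterns without the negative fraction did not overlap those of the 4 patterns with it. The short ESRRB motif was more frequent in medium-lost regions than in regions of the high list alone, by 2.59 points (0.534 to 4.46). It was less frequent than in lost regions with NANOG, where 14.3% (12.6 to 16.1) held it. The octamer showed the opposite order, with 7.94% in high alone and 6.46% in medium alone against 12.2%, 10.4% and 10.7% in the high and negative, medium and negative, and negative alone patterns, although here the intervals of some patterns with and without negative overlapped. The Oct-Sox core did not follow it, at 8.03% in high alone, 3.60% in medium alone and 8.06% in negative alone.

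**Figure D1:**
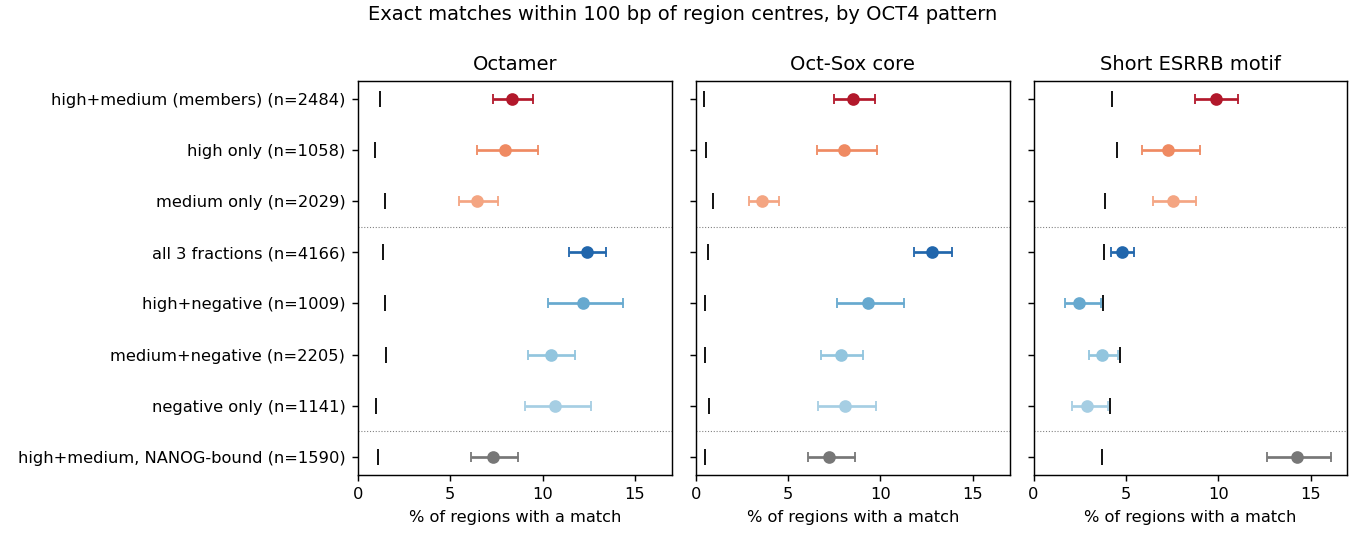
Share of regions with an exact match within 100 bp of the centre (x axis, percent) for 7 NANOG-free OCT4 patterns and the NANOG-bound high and medium regions lost in negative (y axis), with points and bars for the share and its 95% Wilson interval and vertical ticks for windows 10 kb downstream. Medium-lost regions (top row) had 8.33% octamer and 9.86% short ESRRB motif matches, against 12.4% and 4.78% in regions of all 3 fractions.

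Matches lay at the centres of the regions. Per kb of sequence and per 100 medium-lost regions, the octamer was found 72.5 times within 20 bp of the centre and 10.3 times between 100 and 200 bp away, and the Oct-Sox core 112 and 3.79 times. Constitutive regions had 135 and 11.6 octamers and 176 and 6.77 cores. The short ESRRB motif was also centred in medium-lost regions, with 67.8 matches within 20 bp and 28.9 between 100 and 200 bp. In constitutive regions the short ESRRB motif was nearly flat, with 26.3 and 22.0. The KLF box showed little centring in either set, at 28.2 and 19.5 in medium-lost and 26.4 and 15.96 in constitutive regions.

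**Figure D2:**
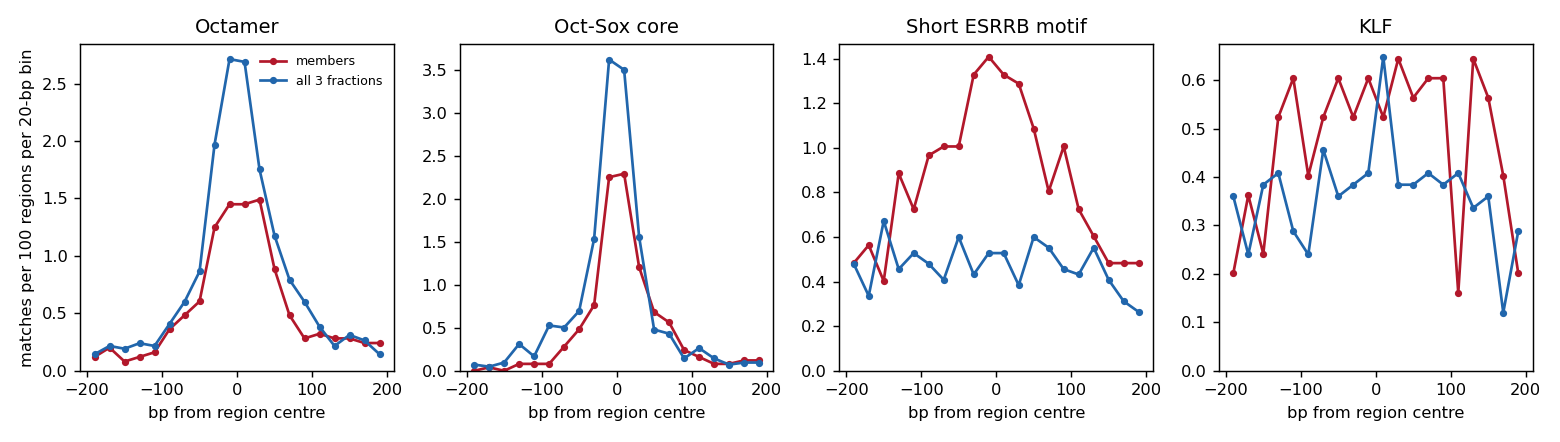
Matches per 100 regions in bins of 20 bp (y axis, own scale in each panel) against the distance of the match from the region centre in bp (x axis), for medium-lost regions (red) and constitutive regions (blue). The octamer and Oct-Sox core peaked at the centre in both sets and higher in constitutive regions, and the short ESRRB motif peaked only in the medium-lost set of the 2 shown.

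The KLF box was found in 128 medium-lost regions, 5.15% (4.35 to 6.09), against 3.84% (3.30 to 4.47) of constitutive regions and 4.19% of all regions. The difference of 1.31 points (0.294 to 2.40) was small, and within 50 bp of the centre it was 0.584 points with an interval that includes 0 (-0.142 to 1.38). A SOX site (CATTGT or CTTTGT) was present in 33.7% of medium-lost and 35.5% of constitutive regions, and a ZIC site (CAGCAGG) in 9.78% and 10.8%. Both intervals of the difference included 0. Lost regions with NANOG held more of both, 48.6% for SOX, 14.9 points more than medium-lost regions, and 18.1% for ZIC, 8.33 points more. SOX sites were present in 40.2% and ZIC sites in 13.8% of all regions. The interval of the difference from constitutive regions also included 0 for 8 other motifs, given here with their share of medium-lost regions and then of all regions. The STAT motif TTCCNGGAA was found in 1.05% and 0.795%, the PRDM14 motif GGTCTCTAA was found in 0.0805% and 0.198% and the OTX motif TAATCC was found in 7.05% and 7.98%. The TEAD motif CATTCCA was found in 4.43% and 4.79%, the GRHL motif AACCGGTT was found in 0.201% and 0.257% and the AP-1 motif TGANTCA was found in 8.17% and 8.11%. The FOX motif TGTTTAC was found in 3.26% and 3.82% and the GATA motif AGATAAG was found in 1.41% and 1.91%.

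Read the other way round, the share of NANOG-free high and medium regions that were absent from negative cells differed with the motif they held. Of the 68 with an ESRRB motif, 45 or 66.2% (54.3 to 76.3) were lost, against 37.1% of those without. With the short ESRRB motif 55.2% (50.5 to 59.7) of 444 were lost, and without it 36.1%. With the octamer 28.6% (25.5 to 32.0) were lost, and without it 38.4%. Regions with a short ESRRB motif but neither OCT4 motif were lost in 56.5% of cases (200 of 354), those with both kinds in 50% (45 of 90), those with neither kind in 38.4% (1878 of 4896) and those with an OCT4 motif alone in 27.6% (361 of 1310). The order from short ESRRB motif alone to OCT4 motif alone was the same with and without a NANOG region nearby, but with 10 and 80 regions of both kinds these shares are imprecise.

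**Figure D3:**
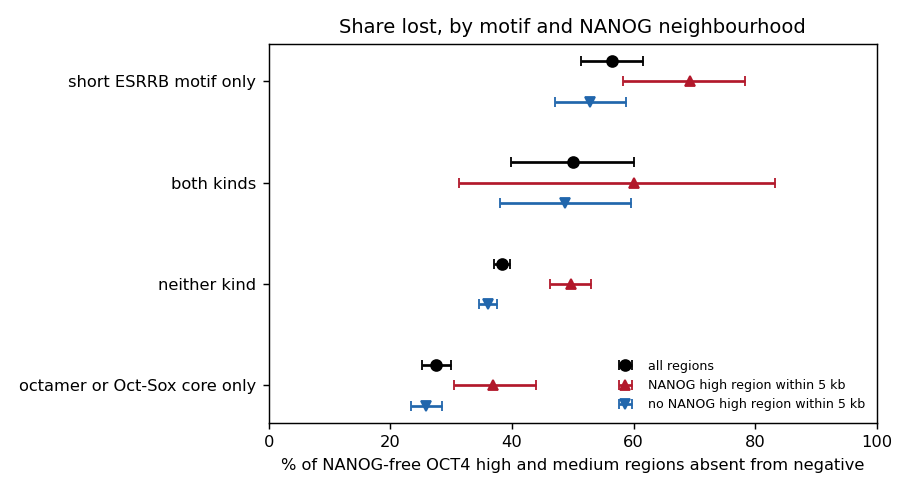
Percent of NANOG-free OCT4 high and medium regions absent from the negative list (x axis) by the motifs within 100 bp of their centre (y axis), with 95% Wilson intervals, for all regions and split by a NANOG high region within 5 kb. Shares ran from 56.5% with a short ESRRB motif alone to 27.6% with an OCT4 motif alone over all regions.

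Although in no NANOG list by rule, medium-lost regions lay closer to NANOG regions than constitutive regions did. A region of the NANOG high list was within 5 kb of 535 medium-lost regions, 21.5% (20.0 to 23.2), against 13.4% (12.4 to 14.5) of constitutive regions, a difference of 8.10 points (6.19 to 10.0). Within 500 bp the shares were 9.22% and 4.78%, and the median distance was 44020 bp against 59520 bp. Within 100 bp they were 5.60% (139 medium-lost regions) and 2.45%, and NANOG signal inside such intervals was not tested. Of the NANOG-free regions of the high list alone, 21.9% had one within 5 kb, a difference of -0.390 points whose interval (-3.42 to 2.52) includes 0. Regions of the negative list alone had 9.82%. Proximity to NANOG and absence from negative cells went together in the high and medium regions as well, with 48.9% (45.9 to 51.8) lost within 5 kb of a NANOG high region and 35.1% (33.8 to 36.4) lost further away.

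**Figure D4:**
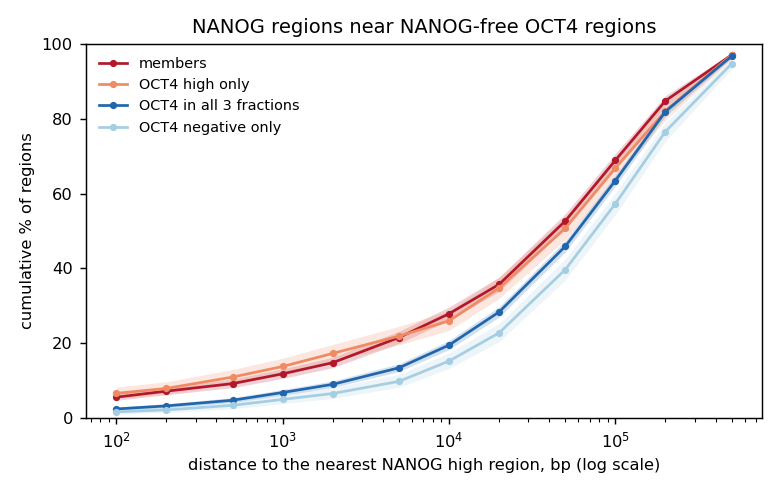
Cumulative percent of regions (y axis) with a NANOG high region within a given distance in bp (x axis, log scale), with bands for 95% Wilson intervals. Medium-lost and OCT4 high-only regions run together above the regions of all 3 fractions and of the negative list alone, which stand at 13.4% and 9.82% at 5 kb.

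Medium-lost regions were mostly distal. Just 203 had a start site of transcription within 1 kb, 8.17% against 11.8% of constitutive regions, a difference of -3.61 points (-5.05 to -2.13). At 5 kb the shares were 27.9% and 28.5%, and the interval of the difference includes 0 (-2.81 to 1.65). By position, 54.9% lay between genes, 40.8% in introns and 4.31% in exons, against 56.6%, 38.9% and 4.49%. The 10 members closest to the start of a protein-coding gene included those at Tmem55a, Zfp35, Zfp689, Msl3l2, Hsp90aa1, Ints4, Cwf19l2, Dppa3 and Mkrn3. The interval at Hsp90aa1, which encodes the inducible HSP90 chaperone, was 300 bp wide and centred 23 bp upstream of the start. Of these 10, none held an exact match to the octamer, the core, the ESRRB motif or the KLF box within 100 bp of the centre. The same was true of 77.6% of all medium-lost regions.

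Of 22367 protein-coding genes, 2163 (9.67%) had a medium-lost region within 20 kb of the gene body and 3378 (15.1%) a constitutive one, and 666 had both. A region lay near a gene for 1730 members, 69.6%. Naive pluripotency regulators had such regions most often of the 10 lists. Of 25 genes, 15 (60%) had a medium-lost region and 6 (24.0%) a constitutive one. A lost region with NANOG lay near 14 of the 25, against 1280 of all 22367 genes. Nearness to naive genes was thus not particular to medium-lost regions. Genes of this list mostly have OCT4 regions of some kind nearby, 24 of 25 against 40.8% of all genes. Among genes with any OCT4 region, 62.5% of naive genes and 23.7% of all genes had a medium-lost region, and 25.0% and 37.0% a constitutive one. The gene lists were chosen with earlier results of these data known, so the list shares are a description only. Among lineage factors, 5 of 36 genes (13.9%) were near a medium-lost region and 12 (33.3%) near a constitutive one. Of the lineage factors with any OCT4 region, 20.8% had a medium-lost region, near the 23.7% of all genes, and 50% a constitutive one.

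The naive genes with medium-lost regions closest to their start were Dppa3, Dppa5a, Nr5a2, Gdf3, Nanog and Jam2. Dppa3 had 3, the promoter pair shown above and 1 at 18367 bp upstream. That last interval lies 2044 bp inside Gdf3, a TGF-beta family ligand gene, so all 3 were counted for both genes. Dppa5a, an RNA-binding protein gene of naive cells, had 3, the closest 587 bp upstream, and the one 3427 bp upstream held a short ESRRB motif. Nr5a2, a nuclear receptor gene, had 3 in introns at 1703, 6593 and 10933 bp from its start. At Nanog, the interval chr6:122653112-122653411 was centred 4246 bp upstream of the start and lay 180 bp from a region of a NANOG list. Klf2, Klf4 and Zfp42 each had 1 with an octamer within 100 bp of its centre, at 7651 bp upstream and at 12656 and 12942 bp downstream of the gene start. Klf2 and Klf4 encode Krüppel-like factors and Zfp42 encodes the naive marker REX1. Tbx3, Klf5, Spic, Zfp57, Manba and Mybl2 completed the list. Of the 21 distinct members at these genes, 6 lay within 500 bp of a region in a NANOG list and 14 within 5 kb. Over all medium-lost regions the shares were 9.70% and 22.2%. A constitutive region was also near 5 of the 15 genes, and near 666 of all 2163 genes with a medium-lost region. The lack of one at the other 10 was thus not particular to naive genes. These 10 may still have an OCT4 region of all 3 fractions that was in a NANOG list.

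Among the shared pluripotency factors, 7 of 19 genes had a medium-lost region and 7 a constitutive one. Of those with any OCT4 region, 38.9% had each kind, against 23.7% and 37.0% of all genes. Sall4, a zinc finger factor, had 1 in an exon at 652 bp from its start. The interval upstream of Pou5f1 shown above was 40 bp from a region in a NANOG list. Sall1 had 3, of which the one printed above was 280 bp wide, and it also had 2 constitutive regions. Fbxo15, Nacc1, Zfp281 and Zfp143 were the others.

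Genes of the formative and primed state had medium-lost regions in 7 of 27 cases and constitutive regions in as many. Ccnd2, a cyclin D gene, had an interval 215 bp upstream of its start, and Sox11, Car4 and Foxd3 had 1 each. In the FGF and ERK pathway 12 of 30 genes had a medium-lost region and 12 a constitutive one. They included the targets Fos, with an octamer within 100 bp of an interval 1591 bp from its start, Etv4 and Etv5, the ligand gene Fgf15, the receptor gene Fgfr4 and the kinase gene Braf. Fgfr2 was counted as well, but its gene model spans over 2 Mb here and its members lie far from its start. In the LIF and STAT3 pathway 3 of 15 genes had one, namely Lif, with an interval 4509 bp upstream of its start, Pim3 and Bcl3. Among genes with any OCT4 region, 29.2% of formative, 48% of FGF and 27.3% of LIF genes had a medium-lost region. The share of all genes was 23.7%. The same shares of each list had a constitutive region, against 37.0% of all genes.

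DNA methylation and chromatin regulators had medium-lost regions at 10 of 35 genes (28.6%) and constitutive regions at 7. Tet1, which encodes a 5-methylcytosine dioxygenase, had 3 in introns, at 5515, 13295 and 14805 bp from its start, and no constitutive region. Dnmt3l, the catalytically inactive partner of the de novo methyltransferases, had 1 at 5749 bp, and Phf19, Ehmt1, Jarid2 and Rnf2 had 1 or 2 each. In the Nodal, TGF-beta and BMP pathway, 6 of 30 genes had a medium-lost and 10 a constitutive region. Lefty1, a Nodal antagonist, had one 442 bp upstream and Id2, a BMP target, one 704 bp upstream with a short ESRRB motif. The Wnt list had 4 of 30 and 7 of 30. Epithelial genes had 4 of 27 and 5 of 27, with an interval 98 bp upstream of Epcam, which encodes a cell adhesion molecule. The germ layer genes were Nkx2-5, Tcfap2a, T, Meis2 and Gata3, of which 4 also had a constitutive region. Among genes with any OCT4 region, 35.7% of chromatin, 33.3% of Nodal, 21.1% of Wnt and 22.2% of epithelial genes had a medium-lost region. The share of all genes was 23.7%.

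**Figure D5:**
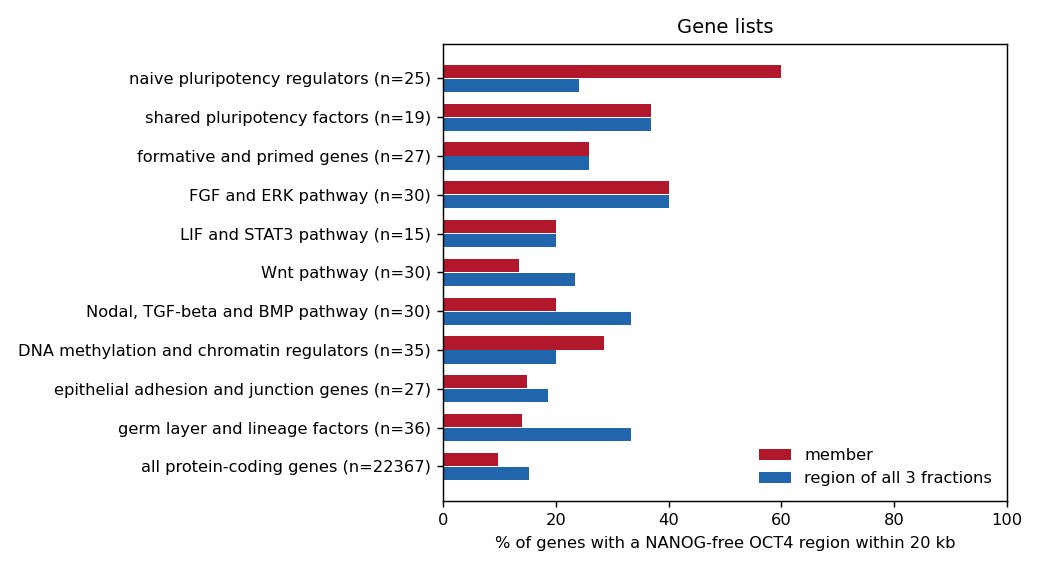
Percent of genes (x axis) of 10 lists and of all protein-coding genes (y axis) with a medium-lost region (red) or a constitutive region (blue) within 20 kb of the gene body. Naive regulators had 60% and 24.0%, lineage factors 13.9% and 33.3%, and all genes 9.67% and 15.1%.

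Some medium-lost regions lay near each other, which was not particular to them. Another one was within 20 kb of 16.7% of members (15.3 to 18.3). A medium-lost region was as near to 15.3% (13.8 to 16.9) of NANOG-free regions of the medium list alone, 14.8% of lost regions with NANOG and 11.1% of constitutive regions, and 18.5% of constitutive regions had another constitutive region within that distance. In all, 416 members formed chains of 2 or more with gaps up to 20 kb. The longest held 6 within 42660 bp on chromosome 19 (45331792 to 45374451), with no protein-coding gene overlapping and no region of any list between them. A chain of 5 spanned 3960 bp on chromosome 1 (37039452 to 37043411), interspersed with 3 regions of NANOG lists. Counting per gene, 1853 genes had 1 member, 256 had 2 and 54 had more.

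The 10 genes with most members were led by Accn1, an acid-sensing ion channel gene of 1088289 bp with 7, and Gm20388, a gene model of 4434882 bp with 7 among 42 OCT4 regions. Zfp462, a zinc finger gene of 138516 bp, had 5 members, 4 of them within 8480 bp. Tra2a, a splicing regulator gene of 20132 bp, had 4 in a stretch of 5680 bp upstream of the gene and no constitutive region. Cacna1a, a calcium channel gene, and Pax5, a paired-box gene of the B cell lineage, had 4 each and no constitutive region. Por, Ppp2r5c and Rhbdd2 had 4. The tenth, 1110012J17Rik, had 3 and is 1 of 45 genes with that number, taken by name. Por and Rhbdd2 are neighbours and were counted for shared intervals where these lay within 20 kb of both.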

How the data were processed

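ChIP-seq of OCT4 and NANOG was analysed for 6 libraries, grouped by the antibody and sorted fraction of their labels. The submitters' processing notes name Bowtie and mm9. Per the methods, the authors called peaks with SISSRs in GeneProf, merged peaks across libraries and dropped regions from fractions that retained too little of its highest depth-normalised signal. The deposited lists hold positions without scores, so depth per library is unknown.

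Intervals were matched exactly between lists (no 2 distinct regions overlapped). Members and gene lists were chosen with earlier results of these data known. Motifs were scanned on both strands within 100 bp of centres in the reference genome of mm9 (NCBIM37), with control windows 10 kb downstream. Genes came from GENCODE for that assembly, with 37273 genes (22367 protein-coding), within 20 kb of the gene body. Shares have 95% Wilson and differences 95% Newcombe intervals. Named genes were those of each list with a member closest to the gene start, the 10 with most members and the 10 members closest to a start. Sequences were the up to 3 per motif closest to a listed gene. Some of the named items are not reported here. The short ESRRB motif was added after the data had been seen. Other tables of coordinates on another assembly were not used here.

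Scripts ran in Python (3.11.15). Sequence was read with samtools (1.23.1) and pysam (0.24.0). Intervals were computed with numpy (2.4.6), statsmodels (0.14.6) and scipy (1.17.1), and plots were drawn with matplotlib (3.10.9). Functions were tested on simulated data of 5000 regions, and 15 of 15 checks passed.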

Additional observations from a re-analysis of the deposited data

How the results depend on the processing

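No paired analysis was possible because no factor and fraction had more than 1 library. Of 69 alternative values over the counts, shares and differences, 51 kept their direction and their side of 0, or stayed within the interval or 1.5 times of the value reported. Of the others, 3 changed sign, 6 kept their direction with an interval that includes 0, and 9 counts or shares moved further. The number of medium-lost regions was between 1933 and 2447 in 5 alternatives and 1322 when regions under the median width of 80 bp were left out. The share lost was 35.3% after merging intervals within 100 bp, 34.1% within 500 bp, 33.3% for regions of at least the median width, 36.1% without a NANOG region within 500 bp and 35.0% without one within 5 kb. The 3 changes of sign were the octamer, the Oct-Sox core and the NANOG distance against the high list alone. Against regions of the high list alone in place of constitutive ones, the difference was 0.394 points for the octamer, 0.501 for the Oct-Sox core, 0.488 for the ESRRB motif, 0.333 for the KLF box, -1.37 for start sites within 1 kb and -0.390 for a NANOG region within 5 kb, and each interval includes 0. The KLF difference was 0.584 points within 50 bp of the centre and 1.09 without a NANOG region within 5 kb, both with intervals that include 0. The difference at start sites was -0.594 points at 5 kb. Genes near members numbered 1292 at 5 kb, 3648 at 50 kb and 1267 for members of at least the median width. The difference in the short ESRRB motif, computed under the same alternatives after the data had been seen, was above 0 in all 9, from 2.59 to 6.34 points. With 1 library per condition, neither depth nor differences between cultures could be weighed.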

Other observations

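Medium-lost regions were spread over the chromosomes, and their share of the NANOG-free high and medium regions ran from 32.4% on chromosome X (36 regions) to 40.2% on chromosome 6, leaving out chromosome Y with 1 of 2. Chromosome 11 held 189, at 1.55 per Mb the highest density, and chromosome X held 0.216 and chromosome Y 0.0629 per Mb. Among the 2080 words of 6 letters, counted with their reverse complements within 100 bp of the centre, the 5 that were lower in medium-lost than in constitutive regions by most points were TGCAAA (27.7% against 34.2%), ATTTGC (16.4% against 22.6%), ATGCAA (23.1% against 28.7%), GCATAA (12.4% against 17.2%) and TATGCA (20.0% against 24.7%). The first 3 are parts of the octamer or its reverse complement. The 5 that were higher by most were AAGGTC (16.7% against 11.3%), AGGTCA (17.8% against 13.2%), ACCTTG (16.6% against 12.2%), GAGAGA (26.7% against 22.4%) and CACCCA (20.1% against 15.99%). The first 3 of these are parts of the ESRRB motif or its reverse complement.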
